A study of Rattus norvegicus with 69 samples.

Results

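Hippocampal CA1 gene expression was compared between rats exposed to sleep deprivation for 72 h (72SD, 20 animals) and rats left in their home cage (HC, 17 animals). Together they made up 37 of the 69 arrays of the series. The members of the comparison were all arrays that the sample titles and treatment labels placed in these 2 groups, and it was described across every probe set that carried a single gene symbol (7006 probe sets, 4736 genes). All animals were young adult males of the Fisher 344 strain, housed 2 per cage. HC animals stayed in that cage, and 72SD animals lived for 72 h with their cage mate in a chamber of small platforms above water, on which a rat that loses muscle tone wakes or gets wet. The paper reports no recording of sleep, so how much these animals slept is not known. Cohort 1 held 5 HC and 8 72SD animals, which had been trained on an active avoidance task before deprivation, and cohort 2 held 12 HC and 12 72SD animals without that training. The related groups 24SD and 72NES were drawn on where they bear on the comparison. They held 16 animals deprived for 24 h (8 in each cohort) and 6 animals of cohort 1 that spent 72 h in the same chamber. A grid over the platforms left those 6 free to sleep (72 h in the chamber without platform deprivation). Training is stated for the HC and sleep-deprived animals of cohort 1, not for the 72NES animals, so training may also differ between 72NES and those groups. The labels do not say which animals shared a cage, so the p-values treat each animal as independent.

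Each animal contributed 1 oligonucleotide array of RNA from dissected CA1 tissue. On this array a probe set is a group of short probes for 1 transcript, and its signal was taken as log2 of the deposited intensity, so that a difference of 1 is a doubling. CA1 is the output field of the hippocampus proper, whose pyramidal neurons receive glutamatergic input from CA3 and are regulated by local interneurons, many of which release neuropeptides. Clock genes such as Per2 form a transcriptional feedback loop that also runs in forebrain neurons, and their mRNA is known to follow both the time of day and the duration of wakefulness. Prolonged waking is also known to act on immediate early genes, chaperones of the endoplasmic reticulum, glucocorticoid targets and energy metabolism, and the gene groups described here were drawn from these themes and from the cell types a CA1 block can hold. In whole tissue, fewer cells of a type and less RNA per cell cannot be told apart.

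After Benjamini-Hochberg adjustment over all 7006 probe sets, 2 probe sets (0.0285%) differed between 72SD and HC at an adjusted p under 0.05, both higher in 72SD. They belonged to Per2, a core repressor of the circadian clock, and Ghr, the growth hormone receptor. Their promoters, 250 bases before to 50 bases after the transcript start of the RefSeq models, are shown because these were the only calls. The Per2 promoter lies on the minus strand at chr9:99496944-99497243 and that of Ghr on the minus strand at chr2:54432026-54432325 (build GRCr8). Capitals mark TTATGTAA, the D-box bound by clock output factors of the Dbp family.
Per2: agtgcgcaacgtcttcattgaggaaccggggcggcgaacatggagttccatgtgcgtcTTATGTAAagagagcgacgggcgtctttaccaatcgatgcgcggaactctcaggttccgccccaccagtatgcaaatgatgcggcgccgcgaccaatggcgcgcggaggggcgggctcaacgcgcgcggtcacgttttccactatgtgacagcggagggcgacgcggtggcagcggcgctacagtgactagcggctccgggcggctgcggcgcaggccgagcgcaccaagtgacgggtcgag
Ghr: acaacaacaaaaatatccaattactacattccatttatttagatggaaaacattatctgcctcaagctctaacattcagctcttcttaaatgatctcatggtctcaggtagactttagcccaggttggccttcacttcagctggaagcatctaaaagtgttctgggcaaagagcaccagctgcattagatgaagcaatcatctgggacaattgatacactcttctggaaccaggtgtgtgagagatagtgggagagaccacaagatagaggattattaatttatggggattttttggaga
TTATGTAA was searched on both strands and was present in 0.893% of the 33469 promoters in the table. The Per2 window held no CACGTG, the E-box bound by the Clock and Bmal1 dimer, which 6.42% of promoters held. Only that exact string was searched, so its absence does not show that the window lacks other sites for the dimer. The Ghr window held neither TTATGTAA nor CACGTG, nor TGACGTCA (cAMP response element, in 1.83% of promoters). It also lacked the consensus sequences searched for the glucocorticoid (0.0149% of promoters) and heat shock (0.798%) response elements. Sequences this rare are missing from nearly all promoters, so their absence says little about Ghr. Of the 11 clock genes measured, 9 had a promoter in the table, and 4 of those 9 held CACGTG while 1, Per2, held TTATGTAA. A motif match describes the letters in the window only.

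The arrays of the comparison were alike in median signal and GAPDH ratio, and less so in actin ratio. The actin 3' to 5' ratio had group means of 1.21 to 1.38 and ran from 0.90 to 1.67 over single arrays. HC arrays 6 and 17 of cohort 2, described below, read 0.99 and 1.01, while 72SD arrays of cohort 2 read 1.25 to 1.52. Array medians ran from 422.6 to 482.6, group means of the GAPDH 3' to 5' ratio from 1.01 to 1.08, and no 2 arrays held identical values. Arrays of 1 cohort correlated at r = 0.951 to 0.976 and arrays of different cohorts at 0.948 to 0.967, so cohort was kept as a block. HC arrays 6 and 17, labelled cohort 2, were the only 2 of 37 that correlated better with the other cohort (0.963 and 0.9626 with cohort 1). Nnat, a gene of CA3 pyramidal cells among others, read 14.19 and 14.21 on these arrays against 11.84 to 12.95 on the other HC arrays of cohort 2 and 14.04 to 14.51 in HC of cohort 1. The whole list of 5 CA3 markers had summed log2 levels of 14.55 to 15.02 in HC and 14.81 to 14.97 in 72SD of cohort 1, against 13.27 to 14.88 and 13.36 to 13.79 in cohort 2, while 7 CA1 markers summed to 13.22 to 13.86 in all these groups. Nnat makes up most of that sum in cohort 1. Leaving arrays 6 and 17 aside, the HC ranges of the cohorts did not overlap for Nnat and Grik4 (10.29 to 10.75 in cohort 1, 9.08 to 9.68 in cohort 2), but they overlapped for Nptx1 (11.42 to 11.86 against 11.04 to 11.94). The part of these genes in the results was not tested. Without arrays 6 and 17 the same 2 probe sets passed the test, with Per2 at +0.46 (adjusted p = 0.0015) and Ghr at +0.62 (adjusted p = 0.044).

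Per2 rose over both cohorts together, and its mean was higher in each. The 5 HC animals of cohort 1 read 8.88, 9.01, 9.07, 9.09 and 9.18 in log2 signal, and the 8 72SD animals read 9.46 at the lowest, 9.74 at the median and 10.06 at the highest. Every deprived animal of cohort 1 was above every home cage animal. In cohort 2 the HC animals read 9.16, 9.88 and 10.10 (lowest, median, highest) and the 72SD animals 9.93, 10.17 and 10.59, so the groups overlapped there, with array 6 the lowest HC value. All 20 72SD animals were above the HC mean of their own cohort. Over both cohorts Per2 was higher by 0.49 ± 0.08 (log2, SE), a fold of 1.41 (limma, adjusted p = 0.00108). The difference was 0.70 ± 0.11 in cohort 1 and 0.38 ± 0.10 in cohort 2, and the gap between them did not pass adjustment (interaction adjusted p = 0.69, unadjusted p = 0.046).

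Ghr rose on 1 of its 3 probe sets. HC animals of cohort 1 read 4.91, 5.35, 5.46, 5.47 and 5.76 on the probe set that passed, and 72SD animals 5.99, 6.36 and 6.79 (lowest, median, highest). In cohort 2 HC read 5.37, 6.02 and 6.33 and 72SD 5.79, 6.41 and 7.07. The groups were apart in cohort 1 and overlapped in cohort 2, and 18 of 20 72SD animals were above their cohort's HC mean. The difference was +0.61 ± 0.12 (fold 1.52, adjusted p = 0.0213). The mean signal was 68.8, below the 502.5 that separated the brighter 50% of probe sets, and the other Ghr probe sets, equally dim, differed by +0.03 ± 0.08 and +0.50 ± 0.31. The growth hormone receptor call therefore rested on 1 dim probe set, and it was lost when HC array 1, 2 or 4 was left out (highest adjusted p = 0.0609), whereas Per2 passed without any 1 of the 37 arrays (highest adjusted p = 0.00371).

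**Figure D1:**
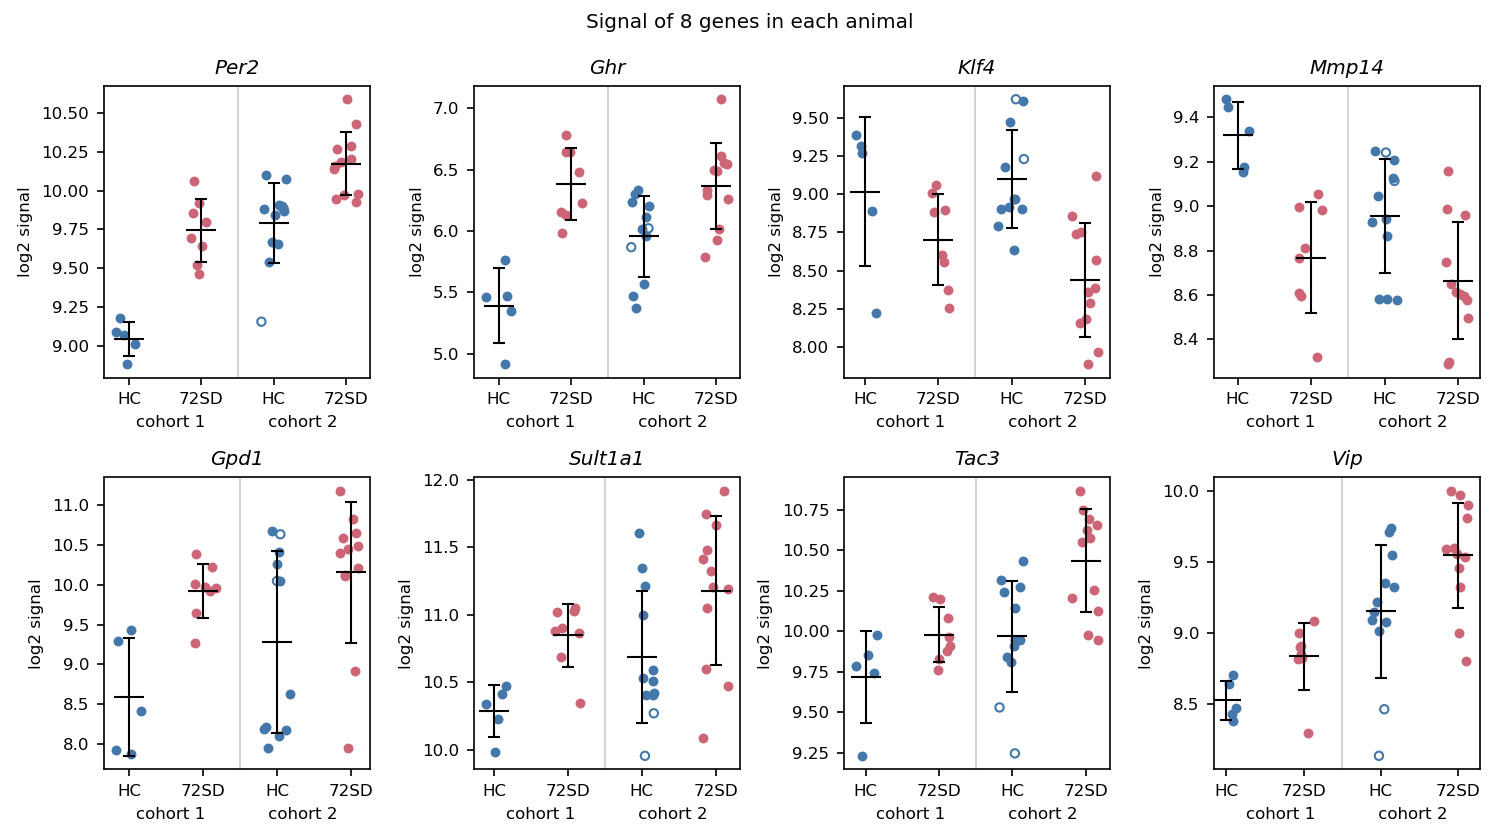
Log2 signal of 8 genes in every HC and 72SD animal, by cohort; each dot is 1 animal, bars are mean ± SD, and open circles are HC arrays 6 and 17. All 8 72SD animals of cohort 1 lie above all 5 HC animals for Per2 and Ghr, and Gpd1 in HC of cohort 2 falls into values up to 8.64 and values from 10.05.

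At the unadjusted p of at most 0.05 that the study used as its threshold, 463 probe sets (6.61%) differed, 194 of them higher (2.77%) and 269 lower (3.84%) in 72SD. Such a threshold passes 5% of probe sets when nothing differs, and the largest adjusted p among the 463 was 0.737. The study's own test at this threshold covered HC and both sleep-deprived groups, on a filtered gene set with outlying values removed. Its counts cannot be set directly beside the 463. The share that was higher depended on scaling, at 41.9% as deposited, 48.2% after quantile normalization and 63.6% after median centring (295 higher, 169 lower), so the balance of higher and lower genes has no settled direction. Differences were small, with a median size of 0.229 (fold 1.17) among these 463, and 83 of them, 5 of these in the brighter 50%, reached 0.5. The genes described next did not pass the adjusted test and are given by their values.

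Among genes of matrix and transcription, 2 had the next smallest p. Klf4, a zinc finger transcription factor induced as an immediate early gene, read 8.22, 9.27 and 9.39 (lowest, median, highest) in HC and 8.25, 8.74 and 9.06 in 72SD of cohort 1, and 8.63, 8.97 and 9.62 in HC against 7.89, 8.37 and 9.12 in 72SD of cohort 2. The groups overlapped in both cohorts, with 18 of 20 72SD animals below their HC mean, and the difference was -0.54 ± 0.12 (adjusted p = 0.1145). Mmp14, a metalloproteinase anchored in the cell membrane, read 9.15, 9.34 and 9.48 in HC against 8.32, 8.79 and 9.06 in 72SD of cohort 1, where the groups did not overlap, and 8.58, 9.00 and 9.25 against 8.29, 8.61 and 9.16 in cohort 2. Its difference was -0.38 ± 0.08 (adjusted p = 0.1145), with 17 of 20 72SD animals below the HC mean. Groups that did not overlap in cohort 1 were found for 37 of all probe sets (0.528%), and for 0 probe sets in cohort 2.

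Among the 41 probe sets with an unadjusted p of at most 0.01, 1 sign in both cohorts and a signal in the brighter 50%, Gpd1 had the largest difference. It encodes the cytosolic glycerol-3-phosphate dehydrogenase that links glycolysis to lipid synthesis and is known as a glucocorticoid target in brain. HC animals of cohort 1 read 7.88, 7.93, 8.42, 9.30 and 9.43 and 72SD animals 9.27, 9.97 and 10.38 (lowest, median, highest). In cohort 2, 6 HC animals lay between 7.95 and 8.64 and the other 6 between 10.05 and 10.67, while 10 of the 12 72SD animals lay between 10.11 and 11.18 and the remaining animals at 7.95 and 8.92. Deprived animals were thus mostly in the upper range, and home cage animals of cohort 2 were in both ranges. The difference was +1.03 ± 0.28 (fold 2.05, adjusted p = 0.323). Sult1a1, a phenol sulfotransferase, was +0.51 ± 0.14 on its brighter and +0.59 ± 0.17 on its other probe set, with 17 of 20 72SD animals above the HC mean on both. Other glucocorticoid-responsive genes did not share one direction. Cebpb, a transcription factor, was +0.19, Sgk1, a kinase that regulates channels, +0.21 ± 0.17, and Dusp1, a phosphatase of MAP kinases, -0.30 ± 0.14. Of 14 genes of the glucocorticoid list 10 were higher, with a median of +0.05, where 45.0% of all 4736 genes were higher and their median was -0.015. Counted by brightest probe set, 6.48% of all genes passed the unadjusted threshold, 2.66% higher and 3.82% lower. In this list 2 were higher (Gpd1, Sult1a1) and 1 lower (Dusp1). Among 9 genes of the corticosteroid axis 7 were higher and 2 passed the unadjusted threshold, Crhbp, which binds and limits corticotropin-releasing hormone (+0.32 ± 0.09, 17 of 20 animals), and Hsd11b1, which regenerates active glucocorticoid (+0.14 ± 0.06). The other Crhbp probe set was +0.19 ± 0.10, with +0.54 in cohort 1 and +0.01 in cohort 2.

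Some neuropeptide genes of interneurons were among the higher genes. Tac3, the precursor of neurokinin B, read 9.23, 9.78 and 9.98 (lowest, median, highest) in HC and 9.76, 9.94 and 10.22 in 72SD of cohort 1, and 9.25, 9.94 and 10.44 against 9.95, 10.57 and 10.87 in cohort 2. The groups overlapped in both cohorts while 19 of 20 72SD animals were above the HC mean, a difference of +0.40 ± 0.10 (adjusted p = 0.203). Vip, the vasoactive intestinal peptide of disinhibitory interneurons, was +0.37 ± 0.12 (17 of 20), and Tac1, the substance P precursor, was +0.23 ± 0.10. Without HC arrays 6 and 17 Tac3 was +0.32, Vip +0.26 and Tac1 +0.19. Of 24 neuropeptide genes 13 were higher (median +0.03), with 4 higher at the unadjusted threshold, Vgf among them (+0.19 ± 0.07), and 1 lower, the prohormone convertase Pcsk2 (-0.12). By cohort, 16 of 24 were higher in cohort 1 (median +0.06) and 11 of 24 in cohort 2 (median -0.04). Members ran from -0.31 to +0.40. The interneuron marker list, which shares Tac3, Vip and Tac1 with the neuropeptide list, had 8 of 19 genes higher and a median of -0.03. Its members went both ways, with the calcium-binding protein Pvalb at +0.17 and the neuronal nitric oxide synthase Nos1 at -0.29 ± 0.11, and its summed level ran from 15.61 to 15.92 in HC and 15.57 to 15.93 in 72SD over both cohorts.

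The clock list was led by Per2, and its other members went both ways. Of 11 genes 5 were higher, with a median of -0.05. Nr1d2, a nuclear receptor that represses Bmal1, was +0.25 ± 0.09 with 18 of 20 72SD animals above the HC mean, and Rorb, which acts at the same elements in the opposite sense, was -0.67 ± 0.28 at a signal of 35. The output factors Dbp and Tef were +0.10 and -0.09, and the repressor Bhlhe41 was -0.05.

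Immediate early genes showed no shared rise at 72 h. Of 25 measured, 8 were higher and the median was -0.10. At the unadjusted threshold 3 were higher and 3 lower, namely Ifrd1, a transcriptional co-regulator (+0.31 ± 0.09), Vgf and Dusp6, a phosphatase of ERK (+0.17 ± 0.07), against Klf4, Dusp1 and Atf3, a stress-induced transcription factor (-0.20). The median of the list was +0.06 in cohort 1 and -0.12 in cohort 2. Homer1, whose short form is an activity-induced scaffold of group I glutamate receptors, was +0.34 ± 0.12 on 1 probe set (unadjusted p = 0.0087) and between -0.01 and +0.07 on the other 5.

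Chaperones of the endoplasmic reticulum leaned higher, with 13 of 16 genes higher and a median of +0.07, and with 12 of 16 in cohort 1 and 10 of 16 in cohort 2. Hspa5, the luminal chaperone known as BiP, was +0.16 ± 0.07 with 17 of 20 72SD animals above the HC mean (+0.14, unadjusted p = 0.0551, without HC arrays 6 and 17), and Calr, a calcium-binding lectin chaperone, was +0.16 ± 0.08. Of 20 cytosolic and mitochondrial heat shock genes 16 were higher (median +0.04, 12 without HC arrays 6 and 17), and 1 passed the unadjusted threshold, the small heat shock protein Cryab (+0.40 ± 0.12, 18 of 20 animals). Fkbp4, a co-chaperone of the glucocorticoid receptor, was +0.11 ± 0.06. Ribosomal protein genes were higher in 29 of 37 (median +0.03), but in 13 of 37 in cohort 1 and 31 of 37 in cohort 2, and in 21 of 37 without HC arrays 6 and 17. Proteasome and ubiquitin genes were higher in 18 of 28 with 0 past the threshold, and translation factors in 7 of 19, with the initiation factor subunits Eif2b4 (-0.10 ± 0.05) and Eif2s3 (-0.15 ± 0.07) lower. Rpl14 (+0.12 ± 0.05) and Rps15 (+0.10 ± 0.05, +0.06 without those arrays) were the ribosomal members at the unadjusted threshold, and 0 passed it without those arrays. Among 20 RNA-binding proteins 14 were higher, 18 in cohort 1 and 11 in cohort 2, with Hnrnpab at +0.15 ± 0.06 and the cold-inducible Cirbp at -0.27 ± 0.12, which was -0.57 ± 0.11 in cohort 1, where the groups did not overlap, and -0.12 ± 0.17 in cohort 2.

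Synaptic vesicle and release genes leaned lower. Of 52 presynaptic genes 16 were higher, the median was -0.08, and 0 were higher and 9 lower at the unadjusted threshold. They included Syn2, which tethers vesicles (-0.23 ± 0.09), Snap25, a fusion protein of the plasma membrane (-0.18 ± 0.07), Dnm1, the GTPase of vesicle recovery (-0.13 ± 0.05), and Syt4, a synaptotagmin (-0.11). These counts depended on 2 choices. After median centring 1 was higher and 4 lower at that threshold with 20 of 52 genes higher, where 4.18% of all genes were then higher and 2.28% lower. Without HC arrays 6 and 17 the number lower was 4 (3.15% of all genes), the median -0.04 and Syn2 -0.14. With all arrays the lean was present in each cohort, with 15 of 52 genes higher in cohort 1 (median -0.09) and 14 of 52 in cohort 2 (median -0.08). The cohort 2 figures include HC arrays 6 and 17. Without those arrays, cohort 2 differences went from -0.29 to -0.15 for Syn2, -0.18 to -0.12 for Snap25 and -0.11 to -0.06 for Dnm1. Slc17a7, another member, went from -0.44 to -0.45. For Syn2, 19 of 20 72SD animals were below the HC mean of their cohort, and the groups overlapped in both cohorts. The 15 general neuronal markers summed to 17.56 to 17.76 in HC and 17.51 to 17.64 in 72SD of cohort 1, and to 17.23 to 17.64 and 17.25 to 17.46 in cohort 2, with overlapping ranges in both.

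Receptors and channels showed little. None of 16 ionotropic glutamate receptor genes passed the unadjusted threshold (0 higher, 0 lower, median -0.02), and Gria2, an AMPA receptor subunit, was +0.05 ± 0.06. Of 33 metabotropic receptor and postsynaptic scaffold genes 15 were higher. Past the unadjusted threshold 2 were higher, the scaffolds Dlg4 (+0.31 ± 0.14) and Grip1 (+0.25 ± 0.12), and 2 lower, Grm7, a presynaptic glutamate receptor (-0.14 ± 0.06), and Nrxn3, a presynaptic adhesion protein (-0.17 ± 0.06). Of 20 GABA genes 9 were higher, 1 of them past the unadjusted threshold, the receptor subunit Gabra5 (+0.14 ± 0.06). Of 43 potassium and calcium channel genes 18 were higher. Past that threshold 1 was higher, the inward rectifier Kcnj14 (+0.23 ± 0.08), and 1 lower, Kcnh2 (-0.14 ± 0.06). In the adenosine and purine group, 5 of 17 were higher; Gda, the guanine deaminase, was -0.23 ± 0.07 and -0.33 ± 0.10 on its bright probe sets and +0.14 ± 0.25 on a dim one, and Xdh, which oxidizes xanthine, was +0.44 ± 0.18.

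Genes of axon guidance and matrix also leaned lower. Of 41 differentiation and axon guidance genes 15 were higher, with a median of -0.05, and 5 were lower at the unadjusted threshold with 0 higher (2 lower after median centring, 3 lower without HC arrays 6 and 17). By cohort, 22 of 41 were higher in cohort 1 and 11 of 41 in cohort 2. The 5 were the netrin receptors Unc5b (-0.16 ± 0.06) and Unc5a (-0.33 ± 0.13, -0.21 without HC arrays 6 and 17), the collapsin response mediators Dpysl2 (-0.23 ± 0.10) and Crmp1 (-0.12), and the adhesion molecule Ncam1 (-0.16 ± 0.08). Of 39 extracellular matrix genes 12 were higher (median -0.08; 20 in cohort 1 and 15 in cohort 2), with 3 higher and 5 lower at that threshold. P4ha1, a collagen prolyl hydroxylase, was +0.37 ± 0.11 with 19 of 20 72SD animals above the HC mean, and Fn1, fibronectin, was +0.20 ± 0.07. Without HC arrays 6 and 17 P4ha1 was +0.29 and Fn1 +0.20. On the lower side beside Mmp14 were Dcn, the proteoglycan decorin (-0.74 ± 0.28), Plat, tissue plasminogen activator (-0.17), and Timp1, an inhibitor of metalloproteinases (-0.19). In the neurotrophin and growth factor list 10 of 30 were higher and 2 passed the threshold, both lower, Ret and the growth factor carrier Igfbp5 (-0.45 ± 0.19). For Ret, a receptor tyrosine kinase, the brightest probe set was -0.29 ± 0.10 and another +0.51 ± 0.13, so its probe sets disagreed.

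Metabolic groups had medians between -0.04 and +0.02. Cholesterol synthesis genes were higher in 6 of 17 (median -0.04; 9 in cohort 1 and 2 in cohort 2), with 3 lower at the unadjusted threshold, the regulator Srebf1 (-0.22 ± 0.08), the squalene epoxidase Sqle (-0.19 ± 0.07, -0.11 without HC arrays 6 and 17) and Idi1, an isomerase of isoprenoid synthesis (-0.33 ± 0.12, but +0.09 in cohort 1). Fatty acid and lipid genes were higher in 14 of 35, and Gpam, which acylates glycerol-3-phosphate, was -0.23 ± 0.07. Glycolysis was higher in 10 of 26 with the phosphofructokinase Pfkl at -0.21 ± 0.10 (-0.10 without those arrays), oxidative phosphorylation in 19 of 30 with 0 past the threshold, and antioxidant enzymes in 17 of 31, with Prdx6 at +0.16 ± 0.07 and Gstm2 at -0.21 ± 0.07.

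**Figure D2:**
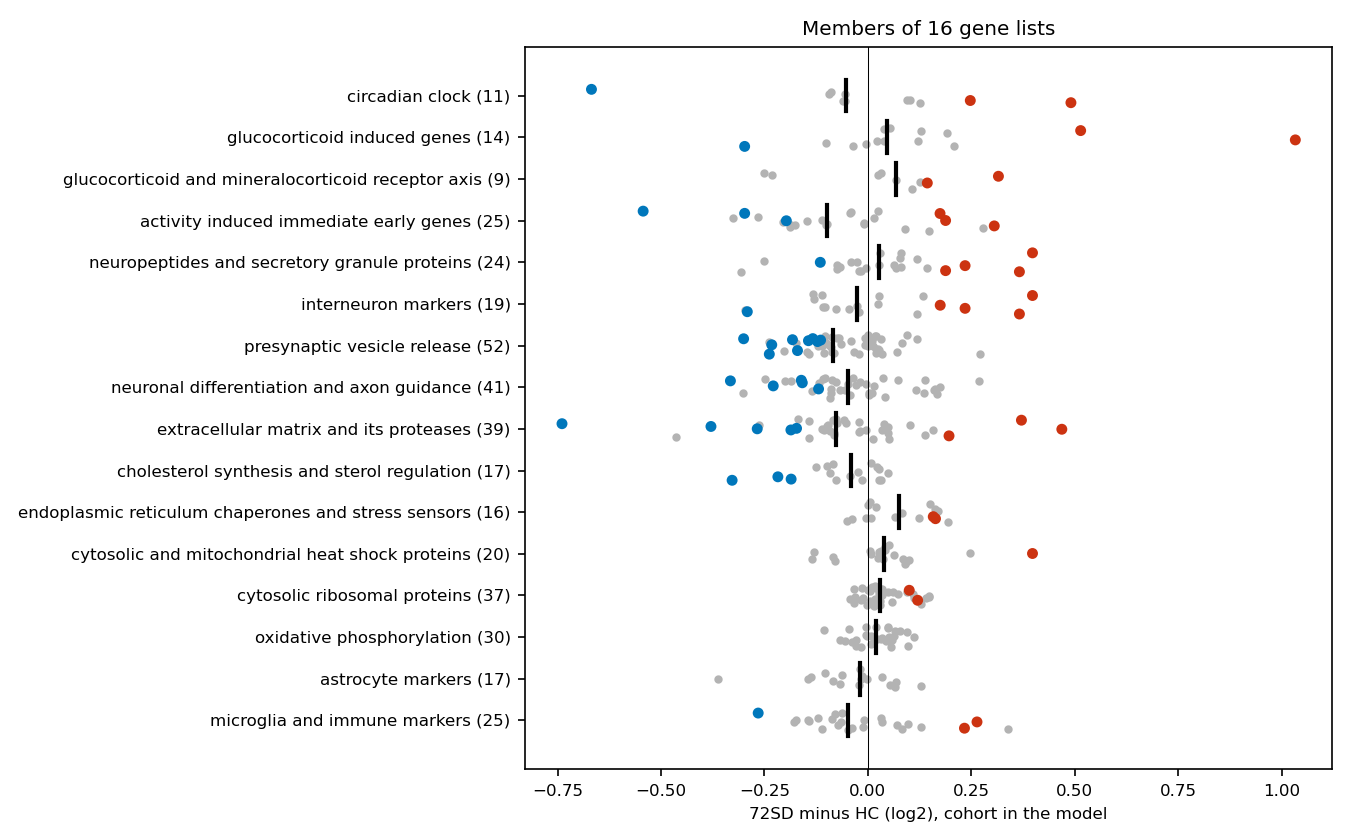
Log2 difference 72SD minus HC of every measured member of 16 gene lists, by brightest probe set; red and blue dots are members higher or lower at an unadjusted p of at most 0.05, and black bars are list medians. The medians lie between -0.10 (immediate early genes) and +0.07 (endoplasmic reticulum chaperones).

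Markers of other cell types passed the unadjusted threshold in 0 to 4 genes a list. Astrocyte markers were higher in 5 of 17 (median -0.02, +0.002 after median centring) with 0 past the unadjusted threshold, and myelin markers in 6 of 15 with the protease Klk6 at -0.19 ± 0.07. Of 25 microglial and immune genes 9 were higher, with the receptors Il6r (+0.26 ± 0.08, 19 of 20 animals) and Il1rap (+0.23 ± 0.11) higher at the unadjusted threshold and Il1b, the interleukin-1 beta gene, lower (-0.27 ± 0.12). Endothelial and pericyte genes were higher in 10 of 18, with Pdgfrb at -0.38 ± 0.16 and Cav1 at -0.22 ± 0.10. In the choroid plexus and meningeal list 7 of 17 were higher and 4 passed the unadjusted threshold (23.5%, beside 6.48% of all genes). Rbp4, the retinol carrier, was +0.36 ± 0.11 with 20 of 20 72SD animals above the HC mean, and the matrix protein Mgp +0.17 ± 0.08, while Dcn and the collagen Col1a2 (-0.27 ± 0.12) were lower. Without HC arrays 6 and 17 Rbp4 was +0.25 ± 0.07, and in cohort 2 alone it fell from +0.26 to +0.08. The other Rbp4 probe sets, both dimmer, were +0.07 ± 0.09 and +0.26 ± 0.17. The 5 CA3 markers had a median of -0.02, the 7 CA1 markers of +0.06 and the 8 dentate markers of +0.09. The 6 blood markers had a median of -0.30 in cohort 1 and +0.16 in cohort 2. Their summed levels did not overlap in cohort 1, at 13.99 to 14.18 in HC and 13.07 to 13.93 in 72SD. In cohort 2 they overlapped, at 13.31 to 14.15 (median 13.65) in HC and 13.36 to 14.15 (median 14.04) in 72SD. The part of blood in the results was not tested.

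The 2 cohorts, which share no animals, gave largely different lists. Taken alone, cohort 1 had 0 probe sets past the adjusted threshold by limma (0%; 478 or 6.82% at the unadjusted one, 269 higher and 209 lower), and cohort 2 had 0 (378 or 5.4%, with 148 higher and 230 lower). Of the 478 in cohort 1, 233 (48.7%) had the same sign in cohort 2, and of the 378 in cohort 2, 202 (53.4%) had the same sign in cohort 1, where 52.4% of all probe sets did. Across all 7006 probe sets the differences of the cohorts correlated at r = 0.04, a description only, since genes are not independent and probe sets share arrays. Both cohorts passed the unadjusted threshold with the same sign in 28 of the 7006 probe sets. These 28 were among the 478 of cohort 1 and the 378 of cohort 2. Whether 28 exceeds the number expected from unrelated cohorts was not tested. On the higher side the 28 included Per2, Ghr, Gpd1, both probe sets of Sult1a1 and Vip. On the lower side were Mmp14, Gda, Pde1b, a phosphodiesterase (-0.25 ± 0.08), and a dim Igfbp5 probe set (-0.96 ± 0.30). That Igfbp5 probe set is not the brightest one, which was given above at -0.45. The responses themselves differed for 2 probe sets (0.0285%; interaction, adjusted p = 0.0479 for both), and for 0 after median centring and 0 with robust fitting. Ddx46, an RNA helicase of the spliceosome, was +0.51 ± 0.07 in cohort 1 and -0.14 ± 0.08 in cohort 2, and Pgrmc1, a heme-binding membrane protein, was +0.46 ± 0.09 and -0.07 ± 0.06. Sgk1 was +0.57 ± 0.16 in cohort 1 and +0.02 ± 0.24 in cohort 2. Prior training, the array background that the study describes and the Nnat and Grik4 levels given above all went with cohort and cannot be told apart. The paper states, without showing the data, that it noted no training effect on its stress or array measures.

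**Figure D3:**
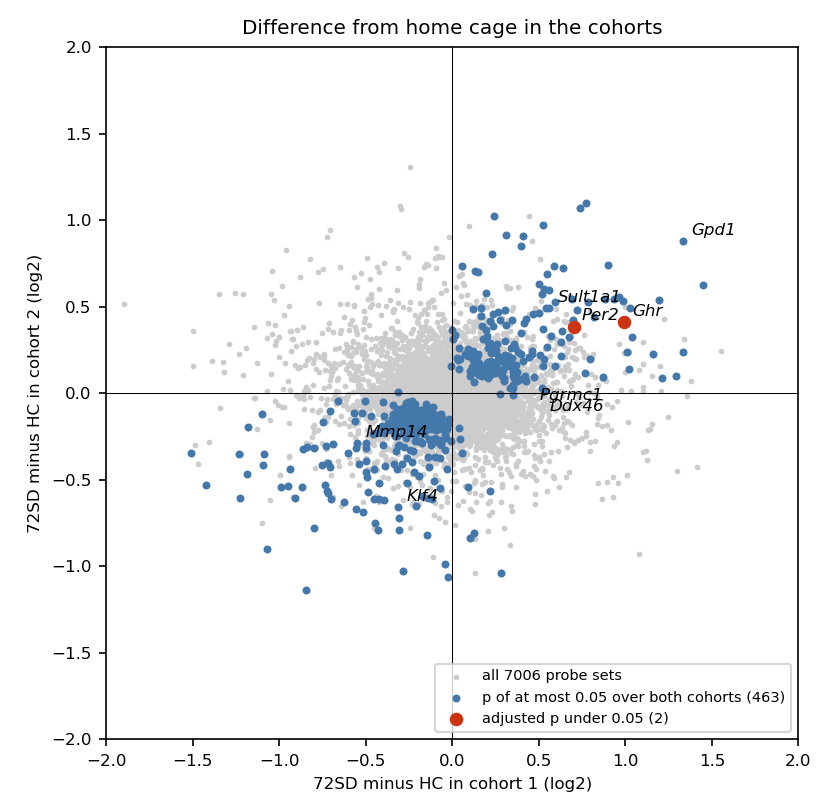
Log2 difference 72SD minus HC in cohort 1 (horizontal) against cohort 2 (vertical) for 7006 probe sets in gray, with the 463 at an unadjusted p of at most 0.05 over both cohorts in blue and the 2 that passed the adjusted test in red; 2 probe sets lie outside the axes. The cloud has no slope to speak of (r = 0.04), and Per2 and Ghr lie to the upper right.

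The length of deprivation and the chamber were examined next. 24SD and 72SD were set against all 17 HC animals and 72NES against the 5 of cohort 1, so the comparisons share HC animals and were not correlated. The value of 72SD in cohort 1 is the one with the same HC animals as 72NES. Per2 was +0.43 ± 0.08 at 24SD beside +0.49 ± 0.08 at 72SD over both cohorts, and +0.47 ± 0.16 in 72NES beside +0.70 ± 0.11 at 72SD in cohort 1. Ghr was +0.30 ± 0.24 at 24SD, where array 25 read 2.10 and the other 24SD arrays 5.15 to 7.20, and +0.52 ± 0.15 without that array. It was +0.82 ± 0.20 in 72NES beside +0.99 ± 0.17 at 72SD in cohort 1. Compared directly, 72SD differed from 24SD at 0 probe sets after adjustment by limma (285 or 4.07% at the unadjusted threshold) and from 72NES at 0 (443 or 6.32%), while 24SD differed from HC at 27 (0.385%). In these direct tests Per2 was +0.05 ± 0.08 over 24SD and +0.23 ± 0.14 over 72NES (adjusted p = 0.755), so an excess of Per2 over the grid-covered chamber was not detectable with 6 such animals.

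For some genes the chamber with a grid gave values near those of the home cage. Vip was -0.14 ± 0.12 in 72NES against HC, beside +0.31 ± 0.12 at 72SD in cohort 1, and 72SD exceeded 72NES by 0.45 ± 0.11 (adjusted p = 0.654). Crhbp was +0.03 ± 0.13 in 72NES (72SD in cohort 1 +0.51 ± 0.12), with 72SD higher than it by 0.47 ± 0.11 (adjusted p = 0.654), and Mmp14 was -0.04 ± 0.15 (72SD in cohort 1 -0.55 ± 0.13), with 72SD below it (-0.51 ± 0.14, adjusted p = 0.683). Gpd1 was +0.35 ± 0.38 in 72NES (72SD in cohort 1 +1.33 ± 0.28) and +1.10 ± 0.31 at 24SD. Klf4 was +0.01 ± 0.21 in 72NES (72SD in cohort 1 -0.31 ± 0.21) and -0.56 ± 0.14 at 24SD. Sult1a1 was +0.90 ± 0.17 at 24SD, and 72SD was below 24SD by an unadjusted p of 0.0187 (-0.39 ± 0.16). In 72NES Rbp4 was +0.61 ± 0.13 and Tac3 +0.37 ± 0.14, beside +0.54 ± 0.11 and +0.26 ± 0.13 at 72SD in cohort 1. None of these differences between 72SD and the other exposed groups passed adjustment.

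**Figure D4:**
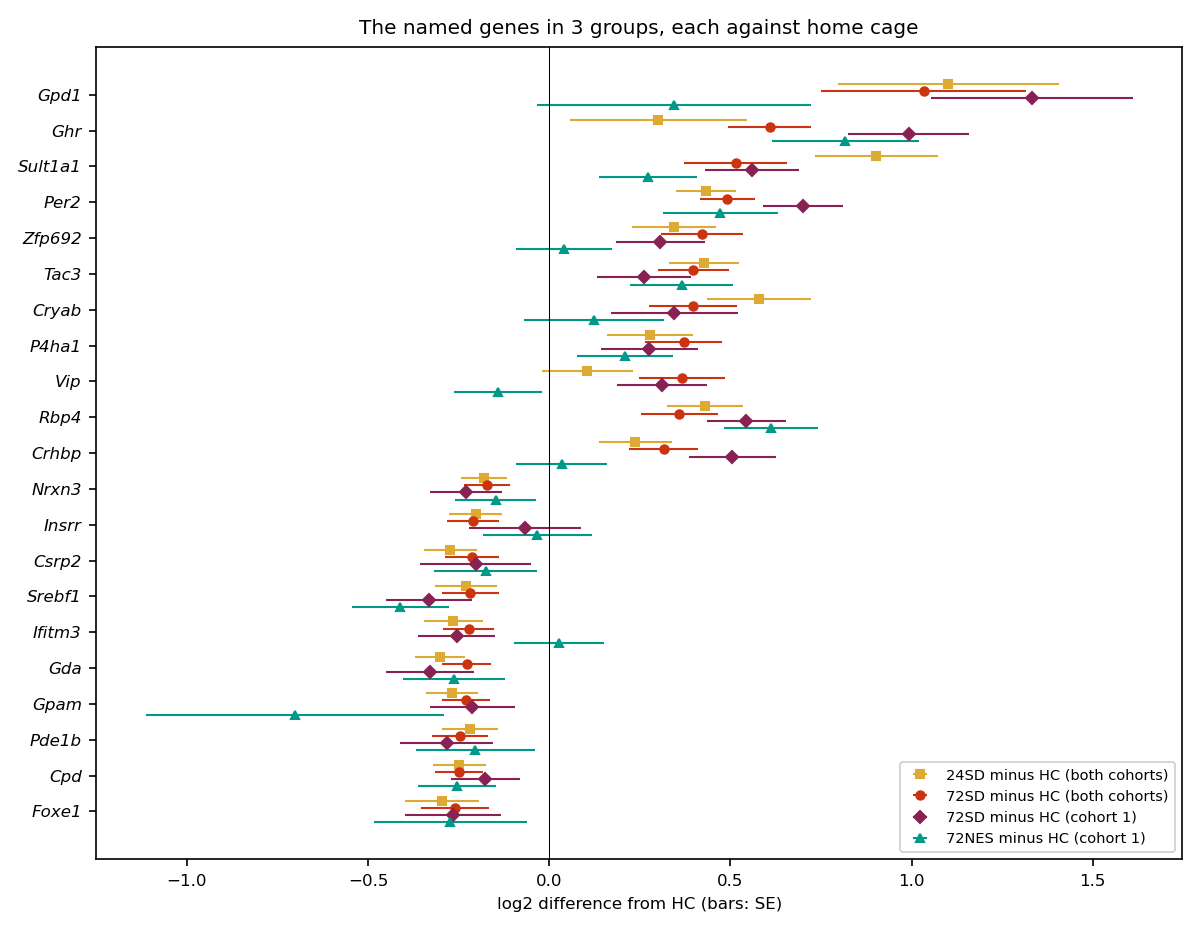
Log2 difference from HC ± SE of 21 named genes in 24SD and 72SD over both cohorts, and in 72SD and 72NES of cohort 1, which share the 5 HC animals of that cohort. In cohort 1 Per2 lies at +0.70 in 72SD and +0.47 in 72NES, and Crhbp at +0.51 and +0.03.

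Of the remaining genes named by the rule, Prpf3, a spliceosome component, was +0.28 ± 0.07 at 72SD (18 of 20 animals) and +0.03 ± 0.09 at 24SD, a difference between durations of +0.24 ± 0.08 at an unadjusted p of 0.0074. Camk2g, a calcium/calmodulin kinase subunit, was -0.26 ± 0.06 on the probe set with the smallest p but +0.01 ± 0.08 on its brightest, Cpd, a carboxypeptidase, -0.25 ± 0.07, and the interferon-induced Ifitm3 -0.22 ± 0.07. Zfp692, a zinc finger protein, was +0.42 ± 0.11 (19 of 20 animals) and Wfdc1, a secreted WAP domain protein, +0.41 ± 0.12 (20 of 20). Without HC arrays 6 and 17 Zfp692 was +0.45 and Wfdc1 +0.34, and in cohort 2 alone Wfdc1 fell from +0.331 to +0.205. C9h6orf141 was +0.51 ± 0.12 and Fryl +0.14 ± 0.05. Adipor2, an adiponectin receptor, was +0.22 ± 0.06 on its brightest probe set (-0.06 ± 0.07 and -0.22 ± 0.24 on the others). The receptor Insrr (-0.21 ± 0.07), the LIM protein Csrp2 (-0.21 ± 0.07) and the transcription factor Foxe1 (-0.26 ± 0.09) were on the lower side. Agrn, the proteoglycan agrin, was -0.08 ± 0.07, the glutamate transporter Slc1a1 +0.02 ± 0.06 and the calcium-binding S100a1 -0.02 ± 0.05, all smaller than 2 SE. Among genes given by their brightest probe set, another probe set in the brighter 50% had the other sign for Syn2 (+0.03 ± 0.09), Rps15 (-0.11 ± 0.07), Kcnh2 (+0.12 ± 0.12), Grm7 (+0.03 ± 0.12), Gria2 (-0.05 ± 0.07) and Slc1a1 (-0.11 ± 0.07), and a dimmer one did for Dpysl2, Gpam, Gstm2, Idi1, Il1b, Il1rap, Insrr and Nos1.

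**Figure D5:**
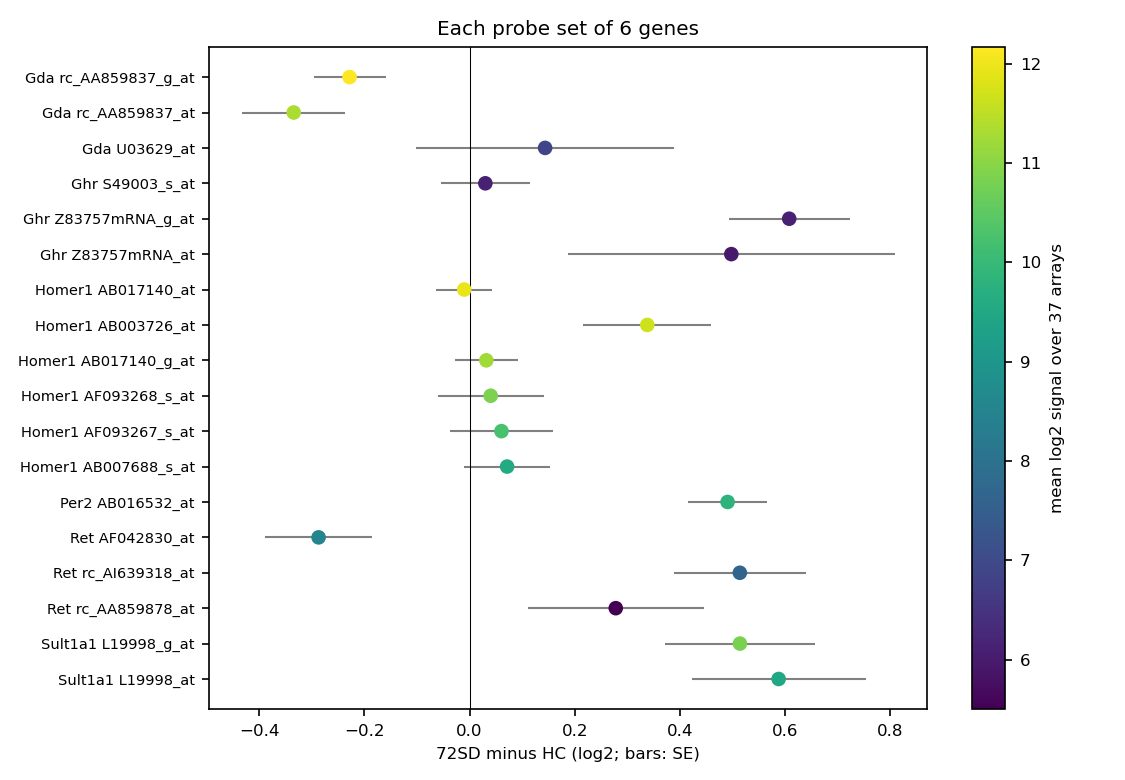
Log2 difference 72SD minus HC ± SE of each probe set of Per2, Ghr, Homer1, Sult1a1, Gda and Ret, with colour giving the mean log2 signal. Both Sult1a1 probe sets are higher, Per2 has 1 probe set, and those of Ghr, Homer1, Gda and Ret differ among themselves.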

How the data were processed

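Rat RGU34A arrays (1 per animal) were hybridized with CA1 RNA. The authors computed a MAS5 signal per probe set, and the deposited intensity values, scaled to a common target and not log transformed, were used as given, with values below 1 set to 1 before log2. The MAS5 version is not given in the sources used here. Arrays have no count of reads, and their number limits the precision. Of 8799 probe sets, 59 were controls, 7006 had 1 gene symbol, 308 several and 1426 none in the platform annotation, and the 7006 were tested. 72SD and HC were compared with limma 3.58.1 (R 4.3.3, lmFit and eBayes), with group and cohort as terms and Benjamini-Hochberg adjustment over the 7006. The study standardized each gene within cohort and applied a 1-way ANOVA at an unadjusted p of at most 0.05. That ANOVA spanned HC and both sleep-deprived groups, on genes filtered by presence calls, with outlying values treated as missing. Only its threshold was kept as a second call rule, applied to the limma fit of 72SD against HC over all 7006. Counts under this rule are therefore not a repeat of the study's test. Where a gene had several probe sets, the brightest was taken.

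Genes were named where a probe set passed the adjusted test, where they had the largest differences at an unadjusted p of at most 0.01 in the brighter 50% with 1 sign in both cohorts, where they led a gene list, or where the study or earlier work on these arrays named them. The members and the gene lists were chosen with earlier results of these data known. Pcsk2, Crmp1, Cebpb, Syt4, Plat, Timp1, Atf3, Dbp, Tef, Bhlhe41 and Pvalb were given as further list members after their values were seen. Lists were described by counts and medians, with no test. Alternatives were quantile normalization, median centring, a floor of 50, the brighter 50% of probe sets, mean-variance trend, robust fitting, array weights, inclusion of 24SD, no cohort term, the methods' ANOVA with and without removal of extreme values, each cohort alone and each array left out. Of these, the removal of extreme values was part of the study's own procedure. HC arrays 6 and 17, and for Ghr 24SD array 25, were left out as alternatives chosen after seeing the data. The limma script was tested on simulated data with known differences. Promoters came from the RefSeq table of GRCr8.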

Additional observations from a re-analysis of the deposited data

Results flagged for a closer look

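In 72SD of cohort 1, animal 38 read 8.29 for Vip, apart from the next lowest animal at 8.82, a gap of 0.663 of the range of that group. It was 1 of 16 groups (8 genes in 2 groups of arrays each) examined in this way, of which chance sets apart about 1 in 20.

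The response to 72SD differed between the cohorts for Pgrmc1 (cohort 2 minus cohort 1 -0.53 ± 0.11, adjusted p = 0.0479) and Ddx46 (-0.65 ± 0.12, adjusted p = 0.0479). Without HC arrays 6 and 17 this test called 1 probe set, Ddx46, and it called 0 after median centring and 0 with robust fitting.

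Among probe sets without a single gene symbol, which the comparison did not use, 1 passed the adjusted test when all 8740 probe sets other than controls were fitted. It was X57764_s_at, lower in 72SD by -0.42 ± 0.07 (adjusted p = 0.0052).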

How the results depend on the processing

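The number of probe sets past the adjusted test was 2 as reported and under quantile normalization, a floor of 50 and robust fitting, 3 under median centring (adding Prpf3) and array weights (adding Klf4), and 1 in the brighter 50% of probe sets, there by brightest probe set, with a mean-variance trend, with the 24SD arrays in the fit and in the ANOVA form. It was 0 with cohort left out, 0 in cohort 1 alone, 0 in cohort 2 alone and 31 in the ANOVA with removal of extreme values. Leaving out 1 array gave 1 to 4, namely 1 (Per2) without HC 1, 2 or 4, 3 (adding Klf4) without HC 3 or 72SD 51, and 4 (adding Ret and Mmp14) without 72SD 53. Per2 was called in 51 of 54 settings, the exceptions being the fit without cohort (adjusted p = 0.486), cohort 1 alone (0.0581) and cohort 2 alone (0.828). Ghr was called in 43 of 52, and not with a trend, with the 24SD arrays, without cohort, in the ANOVA form, in cohort 1 alone, in cohort 2 alone or without HC 1, 2 or 4. At the unadjusted threshold the 463 probe sets became 273 in the brighter 50%, 197 in these by brightest probe set, 288 with cohort left out, 855 with removal of extreme values, and 405 to 550 when 1 array was left out. Without HC arrays 6 and 17, an alternative chosen after seeing the data, they were 404, and 304 of the 463 remained at that threshold. Unc5a, Rpl14, Dnm1, Hspa5, Igfbp5, Tac1, Dusp6, Kcnh2, Dlg4, Col1a2, Prdx6, Il1rap, Eif2s3, Rps15 and Pfkl were among those that did not.

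The cohort interaction called 2 probe sets, but 4 after quantile normalization, 0 after median centring, 10 with a floor of 50, 7 in the brighter 50%, 3 with a trend, 0 with robust fitting and 1 without HC arrays 6 and 17. In the brighter 50%, cohort 1 alone called 6 (Per2, Ddx46, Gpd1 and Rbp4 higher, Cirbp and Gstp1 lower) and cohort 2 none (0). Of 88 genes or probe sets, 8 changed sign in a setting. In cohort 2 alone Ddx46 was -0.14, Gria2 -0.0773 and Pgrmc1 -0.0737. In cohort 1 alone Idi1 was +0.0928, Rps15 -0.0088, Slc1a1 -0.0688 and Homer1 (the probe set at -0.01) +0.0706. After median centring that Homer1 probe set was +0.0112 and S100a1 +0.0041. In the ANOVA with removal of extreme values, in SD units, S100a1 was +0.0497 and Slc1a1 -0.0093, and with cohort left out Slc1a1 was -0.000618. The causes were not tested. The sign of the median of all 7006 probe sets also changed, from -0.013 to +0.008, with centring. No paired analysis was possible because the animal numbers are not shared between groups. Signals near background limit Ghr, Rorb and other dim probe sets, whose median SE was 0.174 against 0.075 in the brighter 50%.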
